A study of Drosophila melanogaster with 24 samples.

Results

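The Turandot genes of Drosophila melanogaster were followed across 24 microarrays of flies and larvae. The family was taken as the 8 genes with the symbols TotA, TotB, TotC, TotE, TotF, TotM, TotX and TotZ, and every probe set named for 1 of them was used. A probe set is the group of short probes with which the array reads 1 transcript. Of the 8 genes, 6 had a named probe set, with 1 probe set each, among 18769 probe sets tested. No probe set was named for TotM or TotX, so these 2 genes were not analysed here. The probe set of TotA was not listed in the array annotation and took its name from a gene list of the study. TotA and TotC both stand in that list of genes, which the study reported as significantly altered in selected adults. The study drew it from these adult arrays, so the adult differences of TotA and TotC are not independent evidence. It also measured TotC by RT-PCR and reported that its RT-PCR results matched the arrays. In the limma comparisons given here, neither gene was called between selected and control adults.

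Turandot genes encode small peptides that are secreted into the fly's blood, largely by the fat body, the organ that in insects does the work of liver and adipose tissue. They are induced by heat, wounding, infection, ultraviolet light and oxidative stress, and TotA is the best known of them. Induction passes through the JAK/STAT pathway, in which Unpaired cytokines bind the receptor Domeless and the factor Stat92E enters the nucleus. For TotA, the kinase Mekk1 and the Imd pathway with its factor Relish also contribute.

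Control and hyperoxia-selected populations descended from 1 pool of intercrossed isogenic lines. Controls were kept in room air, and the selected populations were raised over generations in rising O2. Whole organisms of 2 stages were profiled, adults and 3rd instar larvae, with 3 control and 3 selected populations per stage and 2 arrays per population, which gave 4 groups of 6 arrays. Adult samples were whole flies, 25 males and 25 females pooled together. Selected adults came from the high O2 chamber and control adults from room air, so selection and the O2 around the flies at collection cannot be told apart. The sources used here do not give the age of the adults, the number of larvae per sample or the O2 around the larvae. Nor do they say whether the 2 arrays of a population and stage held separate RNA samples, so the p-values measure the spread between these arrays and populations, some of which may be technical. Populations are numbered 1 to 3 within each treatment, as in the labels. Adults and larvae of 1 treatment and number were taken as 1 population, which the labels do not state.

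Signals are on a linear scale, and their trimmed mean was 2500.1 on every array. The median of an array lay between 401.6 and 685.15, and the 20th percentile of an array between 70.8 and 117.86. Pairs of arrays from 1 population and stage correlated at 0.915 to 0.952 over all probe sets, and arrays from different populations of a group at 0.917 to 0.947. The stage labels were met by their markers. The 3 salivary glue genes Sgs3, Sgs7 and Sgs8 summed to between 227499 and 409810 in larvae and to at most 611.9 in adults. The 3 yolk protein genes Yp1, Yp2 and Yp3, made by adult females, summed to between 318225 and 517181 in adults and to at most 11710 in larvae. Differences are given as log2 differences of group means with a standard error (SE) and the Benjamini-Hochberg adjusted p of limma over all probe sets, and a difference was called at an adjusted p under 0.05.

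The family lies on 2 chromosome arms. In the RefSeq order of genes on chromosome arm 3R, TotA (CG31509), TotC (CG31508), TotB (CG5609) and TotZ (CG31507) follow each other with 0 genes between neighbours, and TotX (CG31193) lies 7 genes beyond TotZ. On arm 2L, TotF (CG31691) and TotE (CG33117) are neighbours, and TotM (CG14027) lies 2183 genes away from TotF. The study's RT-PCR primers for TotC are shown because TotC is the member on which the stage results turn. Each has 20 bases, of which 10 are g or c.
TotC forward primer: ttgccctgctcctgattagt
TotC reverse primer: cagattccctttcctcgtca

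TotA and TotC were the 2 members with clear signal. TotA exceeded the 20th percentile of its array on 24 of 24 arrays and TotC on 23. The count was 20 for TotB, 20 for TotE, 19 for TotF and 5 for TotZ. TotZ was therefore at the dim end of the array in most samples.

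Between the stages, TotA and TotC moved in opposite directions. TotA was lower in adults than in larvae, and TotC was higher, in control and in selected populations. These 2 were the calls among the 6 members in each stage comparison. The stages differ widely on these arrays. Among all probe sets, 28.9% were called higher and 22.1% lower in adults of the control populations, 51% in all. In the selected populations the shares were 34.1% higher and 19.4% lower, 53.6% in all. Against such shares, 1 rise and 1 fall among 6 members are not an unusual number. The median difference between adults and larvae over the 6 members was -0.51 in control and -0.15 in selected populations, beside 0.09 and 0.30 over all probe sets.

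TotA was brighter in larvae than in adults. In control larvae it ran from 17093 to 91843, with a median of 59959, and in control adults from 12104 to 27039, with a median of 17010.1. Both groups overlapped, since the larval value of 17093 (population 2, array 1) lay inside the adult range. The other 5 control larval arrays, at 53486 or more, stood above every adult. Lower values without overlap were seen for 15.5% of all probe sets. The log2 difference was -1.57 (SE 0.32, limma adjusted p = 0.000194), a level 2.97-fold lower in adults.

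In the selected populations TotA ran from 19590.1 to 65378 in larvae, with a median of 35955, and from 6263 to 10725.5 in adults, with a median of 9751. No adult array reached a larval one. The log2 difference was -1.96 (SE 0.32, limma adjusted p = 1.27e-05), a 3.89-fold lower level. Among all probe sets, 13.8% were lower without overlap in this comparison. TotA was lower in adults in 6 of 6 populations, by 3.18-, 2.29- and 3.61-fold in control populations 1, 2 and 3 and by 2.78-, 4.47- and 4.73-fold in selected populations 1, 2 and 3.

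TotC showed the reverse order. In control larvae it ran from 82.3 to 1222, with a median of 394.2, and in control adults from 3098 to 5949, with a median of 4187. The 6 control adult arrays all lay above the 6 larval ones, a pattern shared by 22.5% of all probe sets. TotC was 11.3-fold higher in control adults, a log2 difference of 3.50 (SE 0.57, limma adjusted p = 1.49e-05). Without control population 3, whose larvae gave the brightest TotC of the controls, it was 4.12 (limma adjusted p = 3.93e-05), and without control population 2, whose larvae gave the dimmest, it was 2.97 (limma adjusted p = 0.000823).

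In selected larvae TotC ran from 288.1 to 5226.5, with a median of 745.85, and in selected adults from 1489 to 3844, with a median of 2370.3. One larval array, the first of population 2, exceeded every selected adult, and the other 5 were below all of them. The log2 difference was 1.58 (SE 0.57, limma adjusted p = 0.0233), a 2.99-fold higher level in adults. Without that larval array the difference was 2.11 (SE 0.48, limma adjusted p = 0.0008). The call was lost without selected population 1, at 1.11 (SE 0.65, limma adjusted p = 0.177), and without selected population 3, at 1.53 (SE 0.79, limma adjusted p = 0.124).

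By population, TotC was higher in adults in 6 of 6. The differences were 12.9-, 23.4- and 4.75-fold in control populations 1, 2 and 3 and 5.69-, 1.46- and 3.21-fold in selected populations 1, 2 and 3. The smallest of them, in selected population 2, holds the bright larval array. The control and selected populations were not shown to differ in their stage difference, since the interaction for TotC was -1.92 (SE 0.81, unadjusted p = 0.0272, limma adjusted p = 0.218).

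Tissue markers also differed between the stages. The 3 fat body genes apolpp, Fbp1 and Fbp2 summed to between 218304 and 342332 in larvae and between 70460 and 100643 in adults. Fbp1 and Fbp2, genes of the larval fat body, were at most 319.9 in adults. Their medians in control and selected adults were 84.7 or less, at the dim end of the arrays. The adult sums were therefore almost all apolpp, and the sums do not measure a loss of fat body. Between adults and larvae, apolpp itself differed by -0.41 in control populations (limma adjusted p = 0.000294). In selected populations its stage difference of -0.17 was not called (limma adjusted p = 0.0986). The 4 blood cell genes Hml, NimC1, PPO1 and PPO2 summed to between 29522 and 61694 in larvae and between 2555 and 6663 in adults. In whole animals, fewer cells of a type and less RNA per cell cannot be told apart. The part of tissue makeup in the TotA and TotC differences was not tested.

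**Figure D1:**
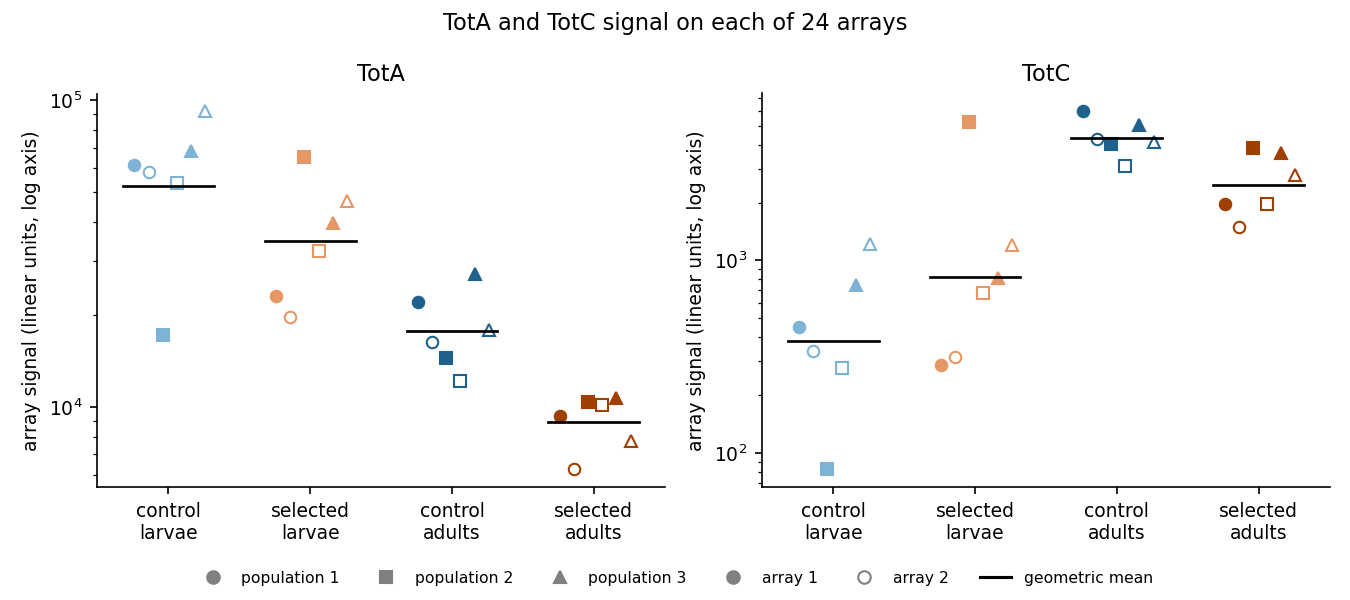
Signal of TotA and TotC on each of the 24 arrays (vertical axis, linear units on a log axis) by group, with the symbol giving the population, the fill the array number and the bar the geometric mean of 6 arrays. TotA falls from larvae to adults while TotC rises, and the first larval array of selected population 2 stands alone for TotC at 5226.5.

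In adults, TotA and TotC had lower signals in the selected populations, but neither difference was called by limma. Of the 6 members, 0 were called, where 0.0799% of all probe sets were called higher and 0.277% lower, 0.357% in all. At an unadjusted p under 0.05 there were 2 members, TotA and TotC, where 11.1% of all probe sets reached that level. The median difference over the 6 members was -0.49, beside 0.06 over all probe sets. TotB, TotE, TotF and TotZ had differences of either sign, each with an adjusted p above 0.6.

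TotA in control adults read 21919 and 16258 in population 1, 14464 and 12104 in population 2, and 27039 and 17762 in population 3. In selected adults it read 9340.1 and 6263 in population 1, 10380 and 10161 in population 2, and 10725.5 and 7758 in population 3. Every selected array was below every control array, as for 1.55% of all probe sets, while 0.852% were higher without overlap. The means were 18258 ± 5423 (SD, n = 6 arrays) in control and 9104 ± 1750 (SD, n = 6 arrays) in selected adults. The log2 difference was -0.98 (SE 0.22, unadjusted p = 0.000929, limma adjusted p = 0.111), a 1.97-fold lower level.

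TotC in control adults read 5949 and 4262 in population 1, 4026 and 3098 in population 2, and 5030.0 and 4112 in population 3. In selected adults it read 1968 and 1489 in population 1, 3844 and 1963.5 in population 2, and 3625 and 2772 in population 3. Of the selected arrays, 4 lay below every control array, and the first arrays of populations 2 and 3 lay within the control range. The means were 4413 ± 973 (SD, n = 6 arrays) and 2610 ± 966 (SD, n = 6 arrays). The log2 difference was -0.81 (SE 0.27, unadjusted p = 0.0104, limma adjusted p = 0.269), a 1.76-fold lower level.

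Means of the populations gave the same order. For TotA the selected populations had geometric means between 7648 and 10270.0, against 13232 to 21915 in the controls. For TotC the ranges were 1712 to 3170 and 3531 to 5035. TotB ran the other way, at 150.7 to 209.8 in selected and 85.9 to 134.1 in control adults. Among all probe sets, 8.15% had population means that were lower without overlap and 9.09% had means that were higher. For each of the 3 genes the two-sided exact permutation test over populations gave p = 0.1, which is the smallest that 3 against 3 populations allow.

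The first array of each adult population gave the higher signal for TotA in 6 of 6 pairs, and likewise for TotC. Among all probe sets, 2.8% were higher on array 1 in every adult pair and 2.38% were higher on array 2. The sources used here do not say whether the number marks a batch. Over first arrays alone the TotA difference between selected and control adults was -1.01, and over second arrays -0.94. For TotC these were -0.71 and -0.91.

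Marker sums for the adults overlapped between the groups. The fat body genes summed to 70460 to 91042 in control and 84704 to 100643 in selected adults. The blood cell genes summed to 3770 to 6663 and 2555 to 6217. The yolk protein genes summed to 318225 to 482610 and 404647 to 517181, and the 4 male genes Acp26Aa, Acp36DE, Mst84Da and Mst84Db to 24017 to 111647 and 63039.5 to 114896. Of these genes, 2 of 4 blood cell, 2 of 3 yolk protein, 1 of 3 fat body and 0 of 4 male genes had an unadjusted p under 0.05, and none was called by limma. Over all probe sets 11.1% had such an unadjusted p and 0.357% were called. PPO1 differed by -0.96 and PPO2 by -0.44, the sign of TotA and TotC, and apolpp by 0.26. Lsp2, a larval storage protein gene and the only 1 of 4 larval markers named here, differed by -0.51 (limma adjusted p = 0.273). The part of these markers in the adult Turandot values was not tested.

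In larvae, the selected and control populations did not separate for any member. None of the 6 was called (0 by limma, and 0 at an unadjusted p under 0.05), where 0.868% of all probe sets were called higher and 0.778% lower, 1.65% in all, and 16.2% reached an unadjusted p under 0.05. No member had groups without overlap, as 2.27% of all probe sets did in the lower and 1.85% in the higher direction. TotA read 17093 to 91843 in control and 19590.1 to 65378 in selected larvae, with a log2 difference of -0.59 (SE 0.43, limma adjusted p = 0.550). The ranges overlapped over most of their width.

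TotC in control larvae read 450.9 and 337.5 in population 1, 82.3 and 275.9 in population 2, and 749.9 and 1222 in population 3. In selected larvae it read 288.1 and 314.2 in population 1, 5226.5 and 678.1 in population 2, and 813.6 and 1198.5 in population 3. The selected mean was set largely by 1 array, 7.71-fold brighter than the second array of the same population. The log2 difference was 1.10 (SE 0.82, limma adjusted p = 0.553), and without that array it was 0.58 (SE 0.67, limma adjusted p = 0.735). With 1 population left out it ranged from 0.43 without control population 2 to 1.83 without selected population 1. It was 0.51 without selected population 2 and 1.76 without control population 3, and was called in none of these. No interaction of selection and stage was called for any member, where 1.01% of all probe sets were called higher and 0.954% lower, 1.97% in all, and 1 member (TotC) had an unadjusted p under 0.05, where 17.8% of all probe sets did.

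**Figure D2:**
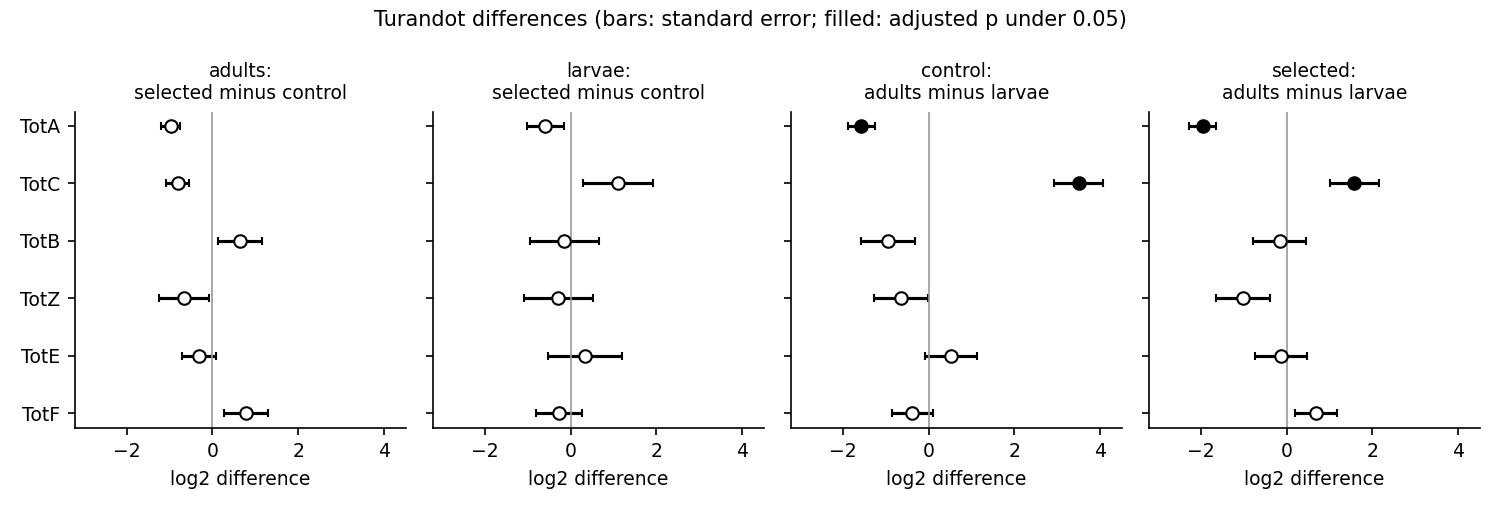
Log2 difference of each of the 6 measured Turandot genes (horizontal axis) in adults and larvae, selected minus control, and in control and selected populations, adults minus larvae. Bars are standard errors and filled points have an adjusted p under 0.05, which only TotA and TotC reach and only between stages.

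Within a group, TotA and TotC varied together from array to array. In larvae, with the group means subtracted, Pearson's r between them was 0.936 and Spearman's rho 0.979 over 12 arrays. Of 14658 probe sets above the dim limit, none followed TotA more closely than TotC did, and none followed TotC more closely than TotA did. Only 3 probe sets correlated with TotA above 0.9, and 1 with TotC. Leaving out 1 array at a time gave r between 0.925 and 0.956, and r was 0.969 without the 2 arrays farthest from the median of TotA. The arrays come in pairs from 6 populations and share whatever differs between arrays, so these values describe the 12 arrays and carry no test. TotA was far brighter than TotC in larvae. Probe sequences were not available here, so whether the TotC probes also read TotA was not tested.

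Of the larval covariation (the summed product of both genes' deviations from the group means), 68.6% lay between populations and 31.4% inside them. Inside populations, the 2 large gaps were those of control and selected population 2. In control larvae of population 2, the second array exceeded the first 3.13-fold for TotA and 3.35-fold for TotC. In selected larvae of population 2, the first array exceeded the second for both genes, 65378 against 32276 for TotA and 5226.5 against 678.1 for TotC. Over both stages, TotA and TotC were higher on the same array in 11 of 12 pairs. The exception was selected population 1 in larvae, where the 2 arrays were close for both genes. In all 6 adult pairs the higher array was the first for both genes, so those 6 agreements are not separate from the array number pattern given above. How often other probe sets agree in this way was not counted.

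In adults the pair was less distinct. Pearson's r was 0.683 and Spearman's rho 0.720 over 12 arrays, and leaving out 1 array at a time gave r between 0.566 and 0.764. Among 14844 probe sets, TotC ranked 1266 in likeness to TotA, and TotA ranked 1027 in likeness to TotC. TotF, a dim member, followed TotA more closely than TotC did in adults, at r = 0.769, but its r with TotA in larvae was -0.476. Above r = 0.9 there were 22 probe sets for TotA and 68 for TotC.

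**Figure D3:**
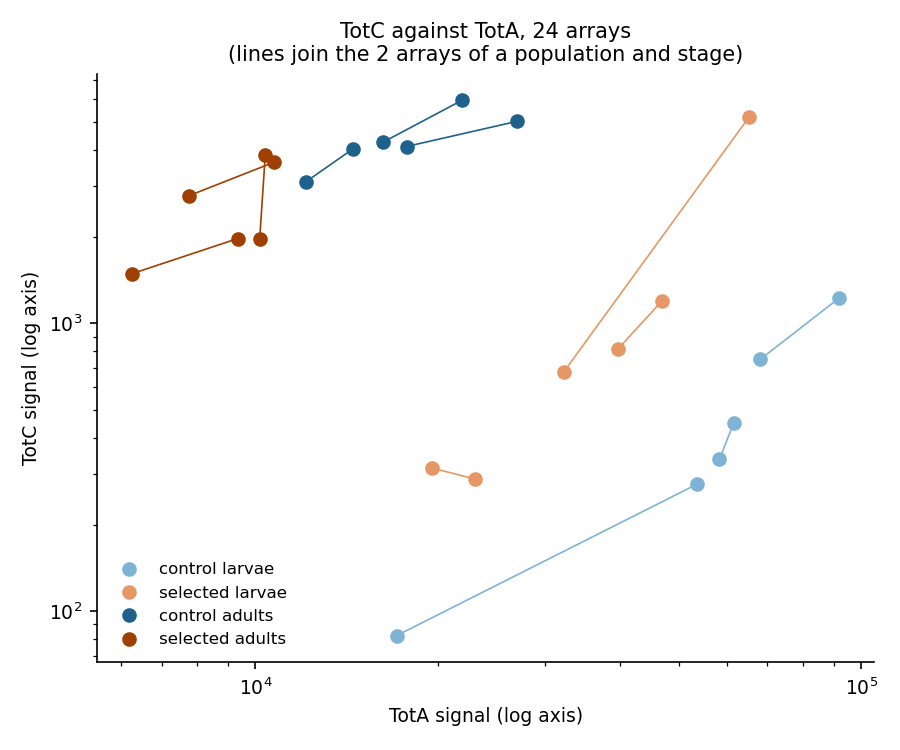
TotC signal against TotA signal (both log axes, linear units) on 24 arrays, with a line joining the 2 arrays of a population and stage. Larvae and adults form separate clouds, with higher TotA and mostly lower TotC in larvae, and within the larval groups the 2 signals rise together (r = 0.936 with group means subtracted).

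The named genes most like the pair were found by the same measure. In larvae, TotA was followed by TotC (r = 0.936), CG8501 (0.931) and Sh3beta (0.919), and TotC by TotA, CG4650 (0.897) and CG3448 (0.881). In adults, TotA was followed by CG13010 (0.928), CG14628 (0.925) and Kua (0.920), and TotC by CG2930 (0.952), CG34040 (0.952) and CG32054 (0.947). No Turandot gene was among the adult names. These are the highest of 14659 probe sets in larvae and of 14845 in adults over 12 arrays each, and they are given as a description.

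The other 4 members gave small and scattered signals. TotB, which lies beside TotC, ran from 30.7 to 240.3 in control adults, from 119.9 to 242.2 in selected adults, from 36.3 to 485.2 in control larvae and from 32 to 479.6 in selected larvae. Its log2 difference was 0.64 in adults (SE 0.50, limma adjusted p = 0.701) and -0.15 in larvae (limma adjusted p = 0.952). All 4 ranges of TotB overlapped.

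TotE ran from 126.2 to 312.6 in control adults, from 56.6 to 260.7 in selected adults, from 23 to 514 in control larvae and from 49 to 604.5 in selected larvae. TotF, its neighbour on 2L, ran from 42.5 to 375.2 in control adults, from 134.4 to 488.2 in selected adults, from 54.7 to 296.9 in control larvae and from 59.3 to 288.8 in selected larvae. The ranges overlapped for each gene. In selected against control adults the log2 difference was -0.32 for TotE (SE 0.39, limma adjusted p = 0.820) and 0.79 for TotF (SE 0.51, limma adjusted p = 0.63).

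TotZ was the dimmest member against its arrays. It ran from 23.3 to 149.7 in control adults, from 12.4 to 45.9 in selected adults, from 17.9 to 256.2 in control larvae and from 15.3 to 154.1 in selected larvae. No selected adult array exceeded 45.9, below the 20th percentile of every array, so its adult difference of -0.66 (SE 0.58, limma adjusted p = 0.731) was one between signals at the dim end of the arrays. Between stages the 4 dim members had differences from -0.95 to 0.53 in control and from -1.01 to 0.69 in selected populations, with limma adjusted p of 0.192 or more.

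**Figure D4:**
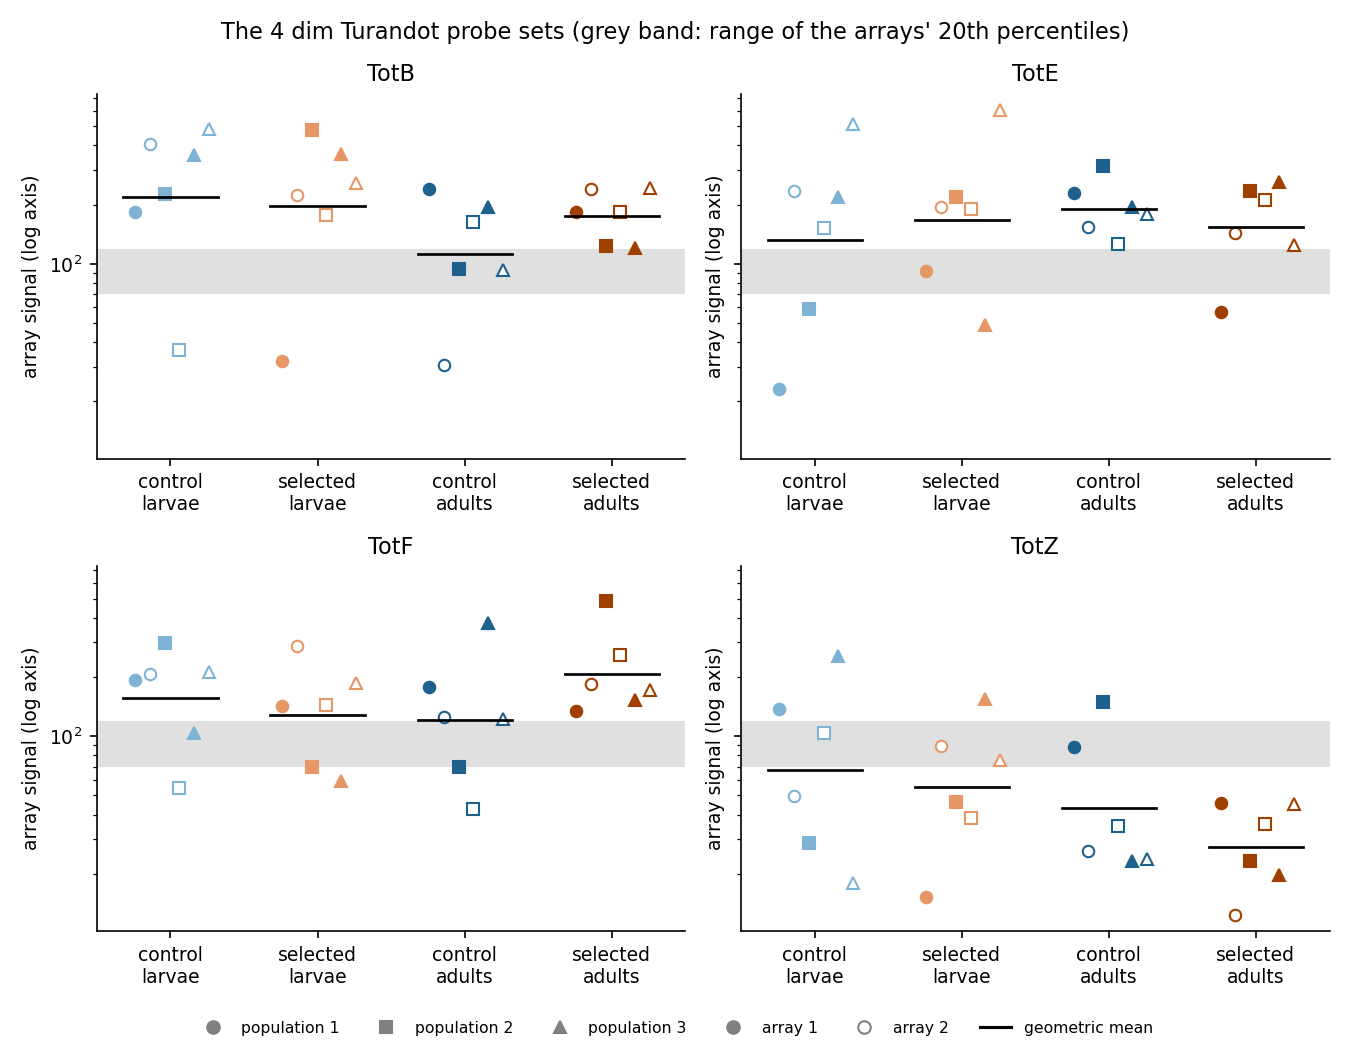
Signal of TotB, TotE, TotF and TotZ on each of the 24 arrays (vertical axis, linear units on a log axis) by group, with symbols for populations, fill for the array number, bars for the geometric mean of 6 arrays and a grey band for the range of the arrays' 20th percentiles (70.8 to 117.86). The groups overlap for TotB, TotE and TotF, and most TotZ points lie in or under the band.

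Genes that act before the Turandot genes in the JAK/STAT pathway, and other targets of that pathway, were read on the same arrays, with the brightest probe set per gene. In adults, selected against control, 0 of 2 ligands, 0 of 2 core members (the receptor dome and the transcription factor Stat92E), 0 of 5 inhibitors and 0 of 2 other targets were called. None of these 11 reached an unadjusted p under 0.05. Over all probe sets 0.357% were called and 11.1% had such an unadjusted p, so 0 of 11 is not an unusual number. The median difference was -0.02 for ligands, -0.06 for the core, 0.09 for inhibitors and -0.11 for targets, beside 0.06 over all probe sets. Both ligands were at the dim end of the arrays in adults, which limits what their values can show. Medians in control and selected adults were 79.7 and 68.65 for upd1, and 35.5 in each group for upd2. The ligand upd3, the kinase hop, the inhibitor and target Socs36E, and Tep1 and Tep2 were not named here. In adults, dome differed by -0.21 (limma adjusted p = 0.583) and Stat92E by 0.09 (limma adjusted p = 0.824).

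In larvae, 1 of these genes was called. Socs44A, a member of the SOCS family of signalling inhibitors, ran from 2844 to 3903 in control larvae, with a median of 3042, and from 5889 to 8612.5 in selected larvae, with a median of 7763. No selected larval array lay in the control range, and 1.85% of all probe sets were higher without overlap in larvae. It rose by 1.19 on the log2 scale (SE 0.14, limma adjusted p = 0.00291), where 0.868% of all probe sets were called higher. In adults it ran from 3171 to 4447 in control and 3382 to 4882 in selected populations, and the interaction of selection and stage was -1.03 (limma adjusted p = 0.00446).

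Between the stages in control populations, 1 of 2 ligands, 2 of 2 core members, 4 of 5 inhibitors and 2 of 2 other targets were called, where 51% of all probe sets were. There dome rose by 1.73 (limma adjusted p = 8.51e-12) and Stat92E by 0.29 (limma adjusted p = 0.0357) from larvae to adults. The ligand upd1 fell by 1.49 (limma adjusted p = 0.0356), to a median of 79.7 in control adults, at the dim end of the arrays. In selected populations its stage difference of -1.14 was not called (limma adjusted p = 0.106). Among inhibitors Ptp61F, Su(var)2-10 and ken rose and et fell. The other targets vir-1, a virus-induced gene, and Tep4, a thioester-containing protein, fell by 1.96 and 1.17, the direction of TotA and not of TotC. In selected populations vir-1 fell by 1.25 and Tep4 by 1.42.

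Of the genes of the Mekk1 and p38 pathway, 6 of 7 were measured. In adults 0 were called, with a median difference of 0.26, and 4 had an unadjusted p under 0.05, beside 0.357% of all probe sets called and 11.1% at that unadjusted level. These were Mekk1 at 0.27, Ask1 at 0.33, p38a at 0.25 and p38c at 0.58, each with a limma adjusted p of 0.369 or more. All 4 were higher in selected adults, the opposite sign to TotA and TotC. In larvae 0 of the 6 were called and 2 had an unadjusted p under 0.05, beside 1.65% and 16.2% of all probe sets. Between stages in control populations Mekk1 and lic rose while p38a fell by 1.17 and p38c fell by 3.31.

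**Figure D5:**
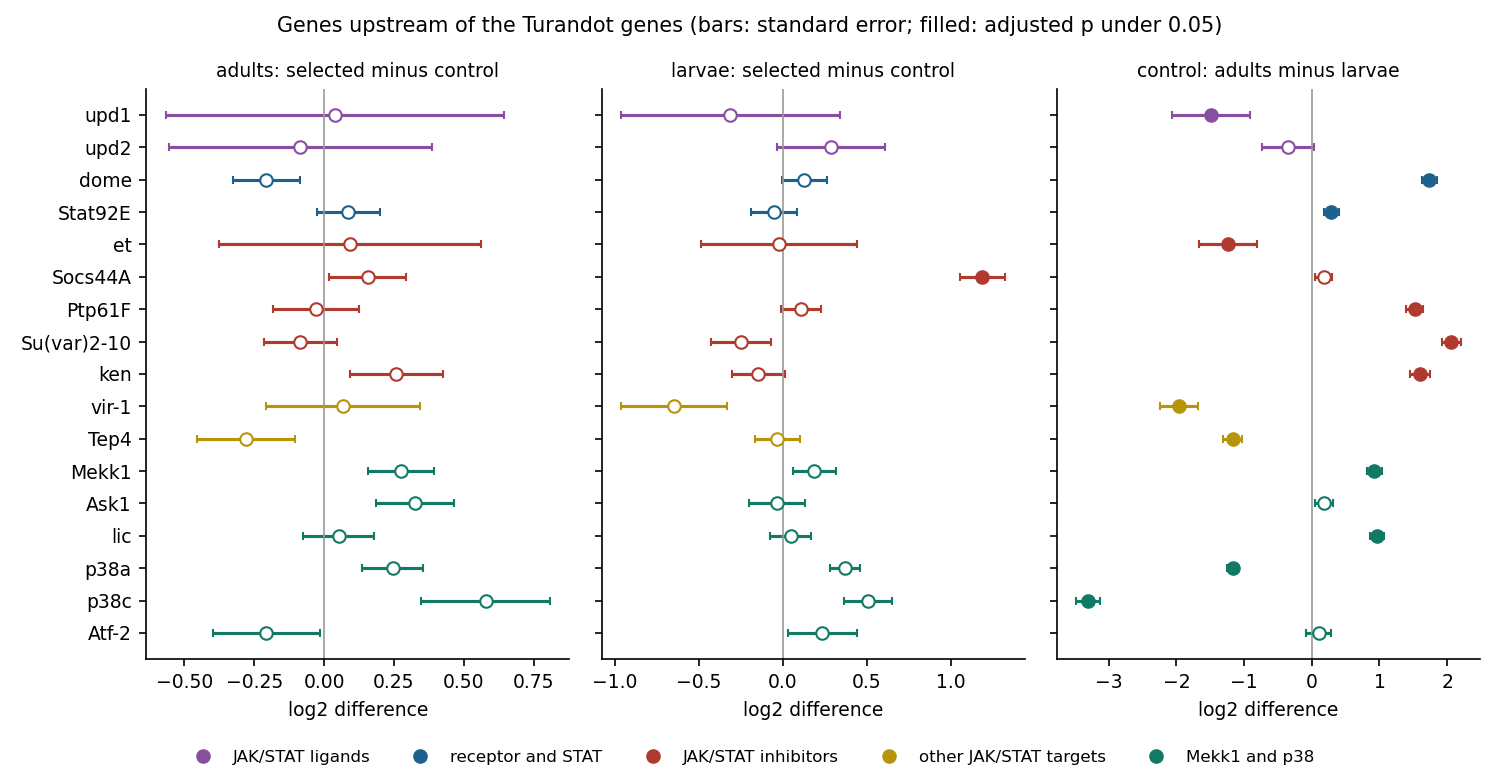
Log2 difference of 17 genes of the JAK/STAT and Mekk1/p38 pathways (horizontal axis; the 3 panels have different scales) in adults and larvae, selected minus control, and in control populations, adults minus larvae, with standard errors as bars. Filled points have an adjusted p under 0.05, which Socs44A alone reaches in larvae (1.19) and no gene reaches in adults.

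The Imd pathway arm, from receptor to Relish, had 7 of 9 genes measured. In adults 0 were called, the median difference was 0.06, and Fadd, an adaptor of the pathway, had the lowest unadjusted p, with -0.34 (limma adjusted p = 0.259). Genes that the Imd pathway induces, the antimicrobial peptides, had signs opposite to TotA and TotC in the same adults. Of 9 measured peptide genes 0 were called, 8 had an unadjusted p under 0.05, and the median difference was 2.91. Over all probe sets 0.357% were called, 11.1% had such an unadjusted p, and the median was 0.06. The largest was DptB, which encodes the antibacterial peptide Diptericin B, at 4.53 (SE 1.12, limma adjusted p = 0.143). Mtk, which encodes Metchnikowin, stood at 4.11, CecC, a Cecropin, at 4.09 and AttC, an Attacin, at 3.67. In control adults CecC read 11.3 to 133.6, with a median of 27.8, at the dim end of the arrays, so the size of its difference is uncertain.

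DptB varied far more among selected adults than TotA or TotC did. It read 260.3 to 672.7 in control adults. In selected adults it read 30030 and 1245 in population 1, 44732 and 940.7 in population 2, and 30364 and 34694 in population 3. On the second arrays of populations 1 and 2, where DptB was 1245 or less, TotA stood at 6263 and 10161 and TotC at 1489 and 1963.5. With group means subtracted, r over the 12 adult arrays was 0.157 between DptB and TotA and 0.634 between DptB and TotC. In larvae 0 of the 7 Imd arm genes and 0 of the 9 peptide genes were called, where 1.65% of all probe sets were. DptB had the other sign there, at 10265 to 32979 in control and 2117 to 20623 in selected populations.

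Of 13 heat shock genes, 5 were named and measured. In adults 0 were called, where 0.357% of all probe sets were, and the median difference was 0.08. The lowest unadjusted p was that of Hsp23, a small heat shock protein, at 1.05 (limma adjusted p = 0.0645). Its signals were 2520.0 to 5929 in control and 6476 to 8165 in selected adults, without overlap, as for 0.852% of all probe sets in that direction. In larvae 0 were called, where 1.65% of all probe sets were. Hsp26 and Hsp68 differed there by 1.01 and 1.13 (limma adjusted p = 0.184 and 0.270).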

How the data were processed

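The values deposited by the authors are linear intensity, from Affymetrix Drosophila Genome 2.0 arrays. MBEI (dChip) and RMA are both named in the methods for background and normalization, and the sources used here do not say which gave them. The equal trimmed mean shows a common scaling, and values were not normalized again. The number of arrays limits the precision.

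After 183 control probe sets of 18952 were left out, values were floored at 1 and taken as log2. limma 3.58.1 in R 4.3.3 (lmFit, eBayes) compared selected with control populations within each stage (12 arrays). Stages and the interaction were fitted over 24 arrays. Population was a random block, with estimated correlations of 0.133 in adults, 0.153 in larvae and 0.0425 over both. Names came from the array annotation, updated through the gene identifier, and 15 probe sets took theirs from a gene list of the study. Of the probe sets, 13661 had 1 gene, 402 several and 4706 none, and those with several were not named.

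Named were every measured Turandot gene, the 3 genes most like TotA and TotC in each stage, up to 4 members of each list, and DptB. Members and lists were chosen with earlier results of these data known. Likeness was searched among probe sets whose mean exceeded 90.4, the 20th percentile of all signals. Alternatives changed the scaling, block, floor, dim filter, moderation, arrays and populations used.

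Numbers 1 to 3 of adults and larvae within a treatment were taken to mark 1 population, which the labels do not state. Deviations of adults and larvae of 1 number correlated at 0.102, -0.007 and -0.069 in control and 0.003, 0.009 and 0.061 in selected populations. These values do not show that link. Control and selected populations share only a number.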

Additional observations from a re-analysis of the deposited data

Results flagged for a closer look

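TotC on the first larval array of selected population 2 stood apart from the other 5 selected larval arrays, at 5226.5 against 1198.5 for the next, a gap of 0.816 of the range of the group. TotA was also highest of its group on that array, at 65378. TotE on the second larval array of selected population 3 read 604.5, with the next at 219.1 and a gap of 0.694 of the range. TotF on the first adult array of selected population 2 read 488.2, with the next at 259.8 and a gap of 0.646 of the range. On the linear signals, such a gap passes Dixon's 95% limit for 6 values, which assumes normally distributed values. The gaps were not taken on the log2 scale used for the comparisons, so the marks may depend on the linear scale. Of 28 groups checked 3 were marked, and for normally distributed values chance marks about 1 in 20, or 1.4 of 28.

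DptB, read beside the family, had a difference between selected and control populations that changed with stage, 4.53 in adults and -1.52 in larvae, an interaction of 6.049 (limma adjusted p = 0.0113). Mtk and CecC also passed that test, at 5.16 and 4.97 (limma adjusted p = 0.0210 and 0.0403). The size of the CecC value is uncertain, since its signal in control adults was at the dim end of the arrays. No Turandot gene did.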

How the results depend on the processing

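The calls of TotC in control populations and of TotA in selected populations held under every alternative run. No member was called in larvae or in the interaction under any. Adult calls were 0 except for 1 with a moderation that follows the signal level and resists outliers (eBayes trend and robust), where TotA had a limma adjusted p of 0.0288. Its adjusted p ranged from 0.0545 to 0.569 over the other alternatives, and from 0.0862 to 0.351 with 1 population left out. With control and selected populations of 1 number paired as a replicate block, TotA in adults had an adjusted p of 0.0942 and TotC 0.208, and no call changed. Deviations of same-numbered control and selected samples correlated at 0.005, -0.084 and -0.038 in adults and 0.000, 0.012 and 0.117 in larvae. The stage calls in control populations fell to 1 over first arrays alone (TotA -1.02, adjusted p = 0.194). The stage calls in selected populations fell to 1 with quantile normalization (TotC 1.26, adjusted p = 0.0855), with population means (0.0544), over first arrays alone (0.302) and with the methods' t-test after Benjamini-Hochberg (0.0716), and they ranged from 1 to 2 with 1 population left out. The cause was not tested. At the methods' own threshold 0 members were called in any comparison, but of all probe sets 0 passed it in adults and 0 in larvae, and 794 and 785 between stages in control and selected populations. The study reported genes passing that threshold in adults, and why none did with the t-test run here was not tested.

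Signs turned for uncalled values alone. Over second arrays alone, the adult difference of TotE was 0.0373. The larval ones were 0.17 for TotB, 0.56 for TotF and 0.50 for TotZ. The stage ones were -0.80 for TotE in control and 0.0245 for TotB in selected populations, and the interaction of TotA was 0.15. Over first arrays alone, TotB in adults was -0.23 and TotE between stages in selected populations 0.60. Median centring gave TotB 0.0311 in larvae, and a floor at the 20th percentile gave TotZ 0.14 in the interaction. Without the first larval array of selected population 2, an alternative chosen after seeing the data, TotB between stages in selected populations was 0.10. With 1 population left out the ranges were -0.58 to 0.0658 for TotE in adults, -0.78 to 0.45 for TotB, -0.0861 to 1.01 for TotE and -0.77 to 0.0046 for TotZ in larvae, -0.82 to 0.0497 for TotF between stages in control, -0.89 to 0.23 for TotB and -0.25 to 0.0902 for TotE between stages in selected populations, and -0.82 to 0.14 for TotZ in the interaction. TotZ could not be given with dim probe sets removed. By the array annotation, which does not list the probe set of TotA, no Turandot gene had a probe set shared with another gene. Counting such probe sets as well therefore changed nothing. Probe sequences were not available here, so whether the probes of 1 Turandot gene also read another was not tested. The dim members lie near the 20th percentile of signals, which limits what their values can show.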
